A study of Homo sapiens with 4 samples.

Results

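The genes described here are 10 components of the cytokine system that signals through gp130, out of 57820 gene IDs in the deposited files. They are the ligands OSM, LIF, IL6 and IL11, the receptor chains IL6R, IL6ST, OSMR and LIFR, the transcription factor STAT3 and the inhibitor SOCS3. They were picked by symbol, and with their levels in these libraries already known. Each symbol matched 1 Ensembl gene ID, and all 10 were listed in every file.

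The libraries were RNA-seq of MOLM-13, a monocytic cell line from a human acute myeloid leukaemia. The GADD45g group (2 libraries) was given doxycycline, labelled as 1 mg/ml over 4 days, and is titled as overexpressing GADD45g. That protein responds to stress and activates a kinase upstream of p38 and JNK. The control group (2 libraries) was untreated. The design text calls them 2 biological replicate experiments. The labels do not describe the construct's promoter or vector, or whether the line was a clone or a pool. Doxycycline and GADD45g expression always occurred together, so they cannot be told apart in any difference below.

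The gp130 cytokines act through a shared receptor chain, gp130, which IL6ST encodes. IL-6 and IL-11 first bind their own receptors, IL6R and IL11RA, and then assemble gp130, whereas LIF joins gp130 to LIFR, and human oncostatin M (OSM) joins gp130 to either OSMR or LIFR. The assembled chains activate JAK kinases, mainly JAK1 with JAK2 and TYK2, which phosphorylate STAT3, and STAT3 switches on SOCS3, whose product binds gp130 and shuts the signal down. Activated monocytes and macrophages are known sources of OSM and IL-6, and LIF and OSM take their names from effects on leukaemic and tumour cells in culture.

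GADD45G itself stood at 3236 and 2118 RPKM (reads scaled to gene length and sequencing depth) in the GADD45g libraries, against 10.5 and 0.289 RPKM in control replicates 1 and 2. The controls therefore differed from each other in GADD45G, with 261 and 6 reads. Recovered depth ran from 15683931 to 18895470 reads per library. Of the markers of MOLM-13 and myeloid cells, CD33 was at 12.5 and 13.7 RPKM in the GADD45g libraries and at 17.6 and 21.5 RPKM in the controls, and SPI1 was at 68.7 RPKM or more in every library, but MPO stayed at or under 0.278 RPKM. The other myeloid markers were mixed: LYZ averaged 255 RPKM in GADD45g libraries and 1020 RPKM in controls, and CSF3R 3.67 and 22.4 RPKM (both called lower). ITGAM averaged 19.4 and 10.9 RPKM (called higher), and FLT3 and CD14, not fitted, 0.0670 and 1.08 RPKM and 1.43 and 0.553 RPKM. CSF1R, at 1.24 and 1.19 RPKM with overlapping values, and FCGR1A, at 0.83 and 1.94 RPKM, were not called. Epithelial markers separated the replicate numbers, not the groups: the 8 markers summed to 42.6 and 0.446 RPKM in GADD45g replicates 1 and 2, and to 43.4 and 0.654 RPKM in control replicates 1 and 2, and EPCAM and KRT19 had 0 reads in both replicate 2 libraries. The 9 fibroblast markers summed to between 0.621 and 1.64 RPKM, the 4 endothelial markers listed to at most 0.147 RPKM, and the 3 erythroid markers listed to at most 0.558 RPKM. The B cell markers summed to 2.40 and 2.19 RPKM in GADD45g libraries and 4.35 and 4.92 RPKM in controls. Of the T and NK cell list NKG7 alone was above 1 RPKM. It was high, at 151 and 134 RPKM in GADD45g libraries and 323 and 340 RPKM in controls (called lower). The part of these markers in the results was not tested.

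The members in brief: both GADD45g libraries had far more OSM and LIF RNA than either control, SOCS3 RNA was about an order of magnitude higher, and STAT3 RNA was moderately higher. IL6R RNA was lower, and IL6ST RNA lay at a low level in all libraries. OSMR was low, and IL6, IL11 and LIFR were at or near 0 reads.

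OSM (ENSG00000099985), the oncostatin M gene, had 87.8 and 71.4 RPKM in the GADD45g libraries, against 1.64 and 1.84 RPKM in the controls. Both GADD45g values lay far above both control values. The fold of the group means was 45.8, and within replicate pairs it was 53.6 and 38.8 (95% counting intervals 42.0 to 69.6 and 30.1 to 50.9). The controls lay within each other's counting error, at 65 and 61 reads. Ranked by RPKM among the genes listed in all files, OSM stood at place 330 and 382 in the GADD45g libraries and at 9830 and 9756 in the controls, a description that needs no scaling between libraries. The log2 change on the log2(RPKM + 1) scale was 4.87 ± 0.23 (SE, n = 2 per group), place 20 among the increases of 10771 tested genes.

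LIF (ENSG00000128342), which encodes leukaemia inhibitory factor, had 43.7 and 36.3 RPKM in the GADD45g libraries, against 0.403 and 0.0321 RPKM in control replicates 1 and 2. The control values came from 30 and 2 reads, and their counting intervals, 0.272 to 0.575 and 0.00389 to 0.116 RPKM, did not overlap. Control replicate 1, the higher of the controls for LIF, was also the higher for GADD45G and for the summed epithelial markers (43.4 against 0.654 RPKM). These differences cannot be told apart in the controls, and their part in the LIF values was not tested. The fold within replicate pairs was 108 (counting interval 75.9 to 161) and 1128 (312 to 9324), so its size depends on which control is used. LIF ranked 794 and 902 by RPKM in the GADD45g libraries and 12028 and 15128 in the controls, and its log2 change of 5.08 ± 0.24 was at place 17 among the increases. AC004264.1, on the opposite strand, overlaps LIF exons in GENCODE release 29. It was at 19.5 RPKM in GADD45g replicate 2 and at 0.0661 and 0 RPKM in the controls, it was not analysed in GADD45g replicate 1, and the labels do not say whether counting used strand.

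IL6, the prototype of the family, was close to absent from these libraries. It had 2 and 0 reads in the GADD45g libraries and 0 reads in both controls, where 0 reads allow up to 0.0882 and 0.106 RPKM. IL11 had 3 and 3 reads in the GADD45g libraries against 5 and 4 reads in the controls, which is 0.0594 to 0.0997 RPKM over all 4 libraries. Differences in either gene were not detectable at this depth. Per unit length, OSM was the highest of the 4 ligands in every library.

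**Figure D1:**
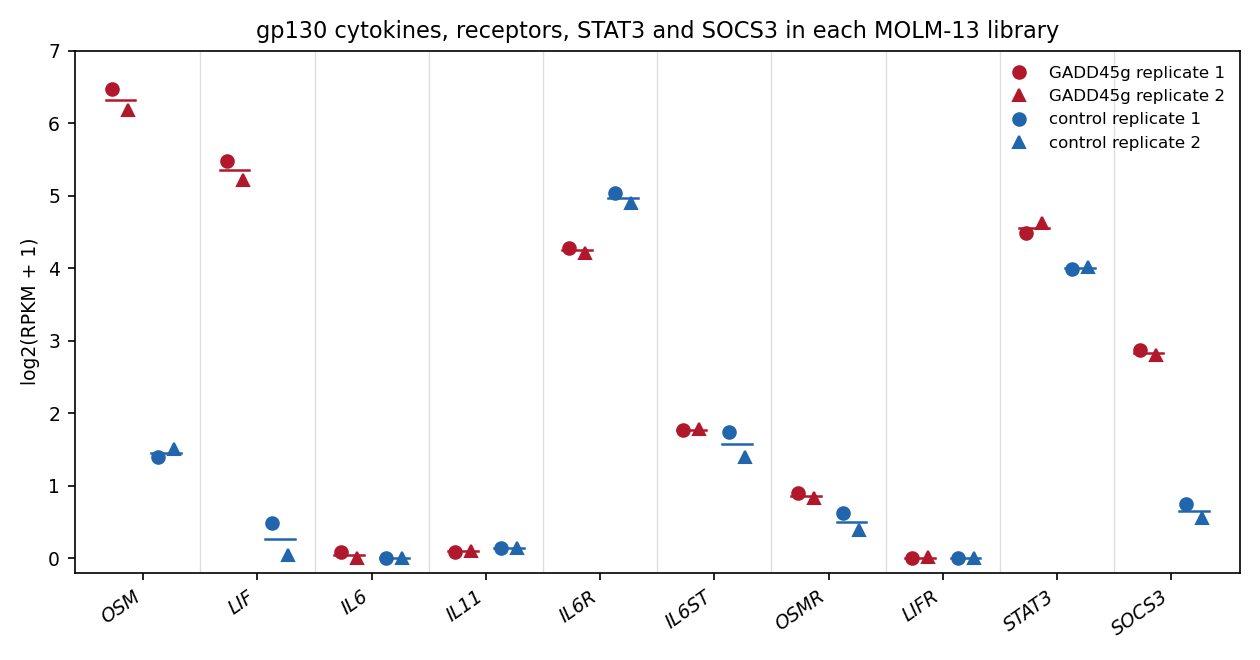
Level of each of the 10 genes, as log2(RPKM + 1), in the 2 GADD45g libraries (red) and the 2 control libraries (blue); circles are replicate 1, triangles replicate 2, and bars the group means. OSM, LIF and SOCS3 are higher in both GADD45g libraries, IL6R is lower, and IL6, IL11 and LIFR lie near 0.

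IL6R (ENSG00000160712), the ligand-binding receptor for IL-6, had 18.4 and 17.5 RPKM in the GADD45g libraries, against 31.8 and 28.8 RPKM in the controls. Both GADD45g values lay under both control values, and the within-pair ratios were 0.578 and 0.607 (counting intervals 0.548 to 0.610 and 0.572 to 0.645). The log2 change was -0.72 ± 0.22, or -0.51 relative to the median change of all tested genes, which was -0.21. IL6R was the highest of the 4 receptor chains in every library, and the highest of all 10 members in the controls.

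IL6ST (ENSG00000134352), which encodes gp130, had 2.39 and 2.43 RPKM in the GADD45g libraries, against 2.35 and 1.64 RPKM in control replicates 1 and 2. The control libraries differed beyond counting error (intervals 2.13 to 2.59 and 1.44 to 1.86 RPKM), while the GADD45g libraries did not. In the replicate 1 pair the ratio was 1.02 (0.886 to 1.17) and in the replicate 2 pair 1.48 (1.26 to 1.75). The log2 change of 0.20 ± 0.22 was smaller than its SE. AC008914.1, on the opposite strand, overlaps its exons (5.89 RPKM in GADD45g replicate 2 and 2.54 and 4.96 RPKM in the controls).

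OSMR, a signalling chain for OSM, had 0.856 and 0.777 RPKM in the GADD45g libraries, against 0.542 and 0.302 RPKM in the controls. These came from 116 and 89 reads against 73 and 34 reads. Both GADD45g values lay above both control values, with within-pair ratios of 1.58 (1.17 to 2.15) and 2.57 (1.71 to 3.94). At a mean under 1 RPKM it was not among the genes fitted. Exons of RICTOR, on the opposite strand, overlap OSMR in the annotation, and RICTOR was at 5.76 and 5.94 RPKM in the GADD45g libraries and 5.57 and 3.35 RPKM in the controls. Control replicate 2 was the lowest library for IL6ST, OSMR and RICTOR alike.

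LIFR, the signalling chain for LIF, had 0 and 1 reads in the GADD45g libraries and 0 reads in both controls, with 0 reads allowing up to 0.0134 to 0.0161 RPKM in a library. This chain, which LIF and OSM can both use, was therefore not detectable at this depth beyond a single read.

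STAT3 (ENSG00000168610), the main transcription factor downstream of gp130, had 21.5 and 23.6 RPKM in the GADD45g libraries, against 14.8 and 15.2 RPKM in the controls. The groups did not overlap, the within-pair ratios were 1.45 (1.37 to 1.52) and 1.56 (1.47 to 1.64), and the log2 change was 0.55 ± 0.22. It was the highest transcript among STAT3, IL6R, SOCS3 and the receptor chains in the GADD45g libraries, and second to IL6R in the controls.

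SOCS3 (ENSG00000184557), the feedback inhibitor of gp130, had 6.28 and 5.94 RPKM in the GADD45g libraries, against 0.683 and 0.467 RPKM in the controls. These came from 324 and 259 reads against 35 and 20 reads, and the within-pair ratios were 9.20 (6.48 to 13.4) and 12.7 (8.07 to 21.2). The log2 change was 2.18 ± 0.22. SOCS3 ranked 5580 and 5725 by RPKM in the GADD45g libraries and 11234 and 12081 in the controls.

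In the order of mean levels, the GADD45g libraries ran from OSM at 79.6 RPKM through LIF (40.0), STAT3 (22.5), IL6R (17.9), SOCS3 (6.11), IL6ST (2.41), OSMR (0.816) and IL11 (0.0649) to IL6 and LIFR at or near 0. The controls ran from IL6R at 30.3 RPKM through STAT3 (15.0), IL6ST (1.99), OSM (1.74), SOCS3 (0.575), OSMR (0.422), LIF (0.217) and IL11 (0.0976) to IL6 and LIFR at 0 reads. The neighbours IL6ST and OSM, SOCS3 and OSMR, and OSMR and LIF had overlapping ranges in the controls, and IL11 lay within the range of LIF there. In the GADD45g libraries the ranges of neighbouring genes overlapped for IL6 and LIFR. The counting intervals of IL11 and IL6 overlapped in each of these libraries. With RNA from whole cultures, a change in the number of cells that make a transcript and a change per cell cannot be told apart.

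Of the 10 members, 6 had a mean of at least 1 RPKM and entered the fit across all genes, with limma on log2(RPKM + 1). LIF and SOCS3 did so through the GADD45g libraries alone. At an adjusted p under 0.05 the fit called OSM, LIF and SOCS3 higher and IL6R lower, 4 of 6, while 38.9% of all tested genes were called, 12.2% (1314) higher and 26.7% (2871) lower. That split moved to 1700 higher and 2293 lower after upper quartile scaling, 1874 and 2080 after quantile normalization, and 1877 and 2045 with the median change shifted to 0. IL6R was not called and STAT3 was called higher under each of these scalings, and IL6R was also not called without GADD45g replicate 1, GADD45g replicate 2 or control replicate 1. The values of GADD45g and control libraries did not overlap for any of the 6, as for 70.0% of all tested genes. The members were chosen with these values known, so these counts are a description and no p-value is given for them.

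Changes within each replicate pair had the same sign for the 6 members fitted. For IL6ST the replicate 1 pair showed no clear direction (ratio 1.02, counting interval 0.886 to 1.17). The log2(RPKM + 1) changes in the replicate 1 and replicate 2 pairs were 5.07 and 4.67 for OSM, 4.99 and 5.17 for LIF, 2.11 and 2.24 for SOCS3, 0.50 and 0.60 for STAT3, -0.76 and -0.69 for IL6R, and 0.02 and 0.38 for IL6ST. For LIF the added 1 RPKM hides the difference between the controls, since the pair folds of 108 and 1128 had intervals that did not overlap. The replicate 2 libraries, with summed epithelial markers of 0.446 RPKM in GADD45g and 0.654 RPKM in control, are the second value of each pair.

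**Figure D2:**
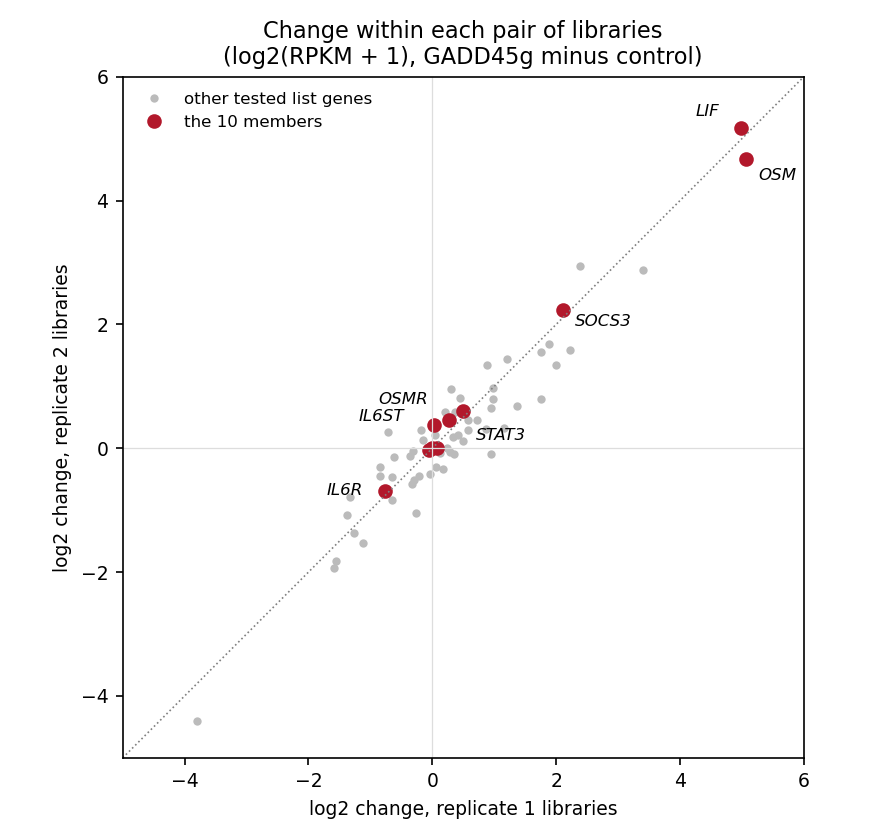
Change in log2(RPKM + 1), GADD45g minus control, within the replicate 1 libraries (x axis) and the replicate 2 libraries (y axis), for the 10 members (red) and other tested genes of the pathway lists (grey); the dotted line marks equal change. OSM lies at 5.07 and 4.67 and IL6R at -0.76 and -0.69.

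The rest of the gp130 family was mostly low or lower. Among 13 other ligands and receptor chains of the family and its relatives, 6 were tested, of which 3 fell, 0 rose and 3 did not pass (median log2 change -0.54, beside -0.21 over all tested genes, of which 26.7% fell and 12.2% rose). IL27RA, the IL-27 receptor that pairs with gp130, fell to 2.99 and 3.13 RPKM in the GADD45g libraries, against 10.7 and 13.6 RPKM in the controls (log2 change -1.69 ± 0.22, adjusted p = 0.000205). IL31RA, a gp130-like chain that pairs with OSMR to bind IL-31, fell to 3.57 and 5.21 RPKM, against 10.0 and 15.0 RPKM in the controls (-1.32 ± 0.26, adjusted p = 0.00236). IL12RB1, a chain of the IL-12 and IL-23 receptors, had 0.566 and 0.525 RPKM against 1.45 and 1.72 RPKM in the controls (-0.74 ± 0.22, adjusted p = 0.0210). It passed the filter on low values through the controls alone. Its call was lost after quantile normalization (limma adjusted p = 0.0651), with the median change shifted to 0 (0.0830) and with no filter (0.0624). The call was also lost with IDs missing from a file kept (0.0864), and without GADD45g replicate 1 (log2 change -0.76) or 2 (-0.72).

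CLCF1, a ligand of the CNTF receptor, was at 5.92 and 7.06 RPKM in the GADD45g libraries and 4.96 and 4.37 RPKM in the controls, and did not pass (limma adjusted p = 0.169). IL11RA did not pass either (0.273). CTF1, IL27, EBI3, CNTFR and IL12RB2 stayed under 0.5 RPKM in every library, IL31 was at 0 RPKM in all of them, and CNTF was not listed in all files.

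Calls among the kinases and STATs were about as frequent as among all genes. Of 10 JAK and STAT genes 9 were tested, of which 1 rose, 2 fell and 6 did not pass (median log2 change -0.18), so that 33.3% were called, against 38.9% of all tested genes. JAK1, the kinase that gp130 depends on most, rose to 43.6 and 49.0 RPKM in the GADD45g libraries, against 21.6 and 24.4 RPKM in the controls (0.98 ± 0.23, adjusted p = 0.00667; 0.0546 without GADD45g replicate 2). JAK2 was at 2.01 and 2.38 RPKM against 4.39 and 3.20 RPKM and TYK2 at 41.3 and 40.8 RPKM against 22.2 and 32.7 RPKM, and neither passed (adjusted p = 0.0657 and 0.0915). TYK2 passed under each of the 3 scalings (0.0305 to 0.0432) and JAK2 with a robust prior (0.0447) and voom (0.0285), and both passed without control replicate 2 (0.0443 for JAK2 and 0.0407 for TYK2) and with libraries paired by title suffix in a replicate block (0.0315 and 0.0478).

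JAK3, which serves the common gamma chain receptors of lymphocytes, fell to 1.91 and 2.44 RPKM, against 7.78 and 12.2 RPKM in the controls (-1.77 ± 0.25, adjusted p = 0.000329). STAT5A, a STAT of the growth factor receptors, fell to 6.40 and 5.20 RPKM, against 15.1 and 16.9 RPKM in the controls (-1.33 ± 0.22, adjusted p = 0.000938). Without control replicate 2 the list had 5 calls in place of 3.

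The regulators of the pathway also had a share of calls near that of all genes. Of 15 tested genes for SOCS proteins, PIAS proteins, phosphatases and receptor-shedding proteases, 2 rose, 3 fell and 10 did not pass (median log2 change -0.01), which is 33.3% called, against 38.9% of all tested genes. SOCS7 was not matched. CISH, a SOCS family gene known as a STAT5 target, rose to 6.36 and 5.92 RPKM, against 1.85 and 3.31 RPKM in the controls (1.02 ± 0.25, adjusted p = 0.00721). PTPN1, a phosphatase that acts on JAK2 and TYK2, rose to 37.7 and 33.3 RPKM, against 18.7 and 18.8 RPKM (0.89 ± 0.23, adjusted p = 0.0101). PTPN2, which acts on JAK1 and JAK3, fell to 2.49 and 3.38 RPKM, against 8.01 and 8.29 RPKM (-1.23 ± 0.22, adjusted p = 0.00144). SOCS5 (-1.05, adjusted p = 0.00813) and PIAS2 (-0.65, adjusted p = 0.0407) fell as well.

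Calls in this list depended on single libraries: 2 were left without GADD45g replicate 1, 3 without GADD45g replicate 2 and 3 without control replicate 1. CISH lost its call without GADD45g replicate 1 (adjusted p = 0.0614) or control replicate 1 (0.0550), SOCS5 without GADD45g replicate 2 (0.0618) or control replicate 1 (0.0606), PTPN1 without GADD45g replicate 1 (0.0771), and PIAS2 without any one of the 4 libraries (0.0718 to 0.300). PIAS2 also lost it under each of the 3 scalings (0.0937 to 0.205), with no filter (0.160) and with IDs missing from a file kept (0.1). SOCS1, which like SOCS3 inhibits JAK kinases directly, was at 1.94 and 0.767 RPKM in the GADD45g libraries and 0.522 and 0.885 RPKM in the controls, ranges that overlap. ADAM10 and ADAM17, proteases that shed IL6R from the cell surface, were at 38.9 and 38.5 RPKM against 28.4 and 21.4 RPKM and at 32.2 and 32.9 RPKM against 24.8 and 21.6 RPKM, and did not pass (0.0593 and 0.121). None of the 8 adaptors and kinases that couple gp130 to the RAS and SRC routes (such as PTPN11, GRB2 and SHC1) passed with limma, although 2 had an unadjusted p under 0.05 and voom on the recovered reads called 2; 38.9% of all tested genes were called.

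**Figure D3:**
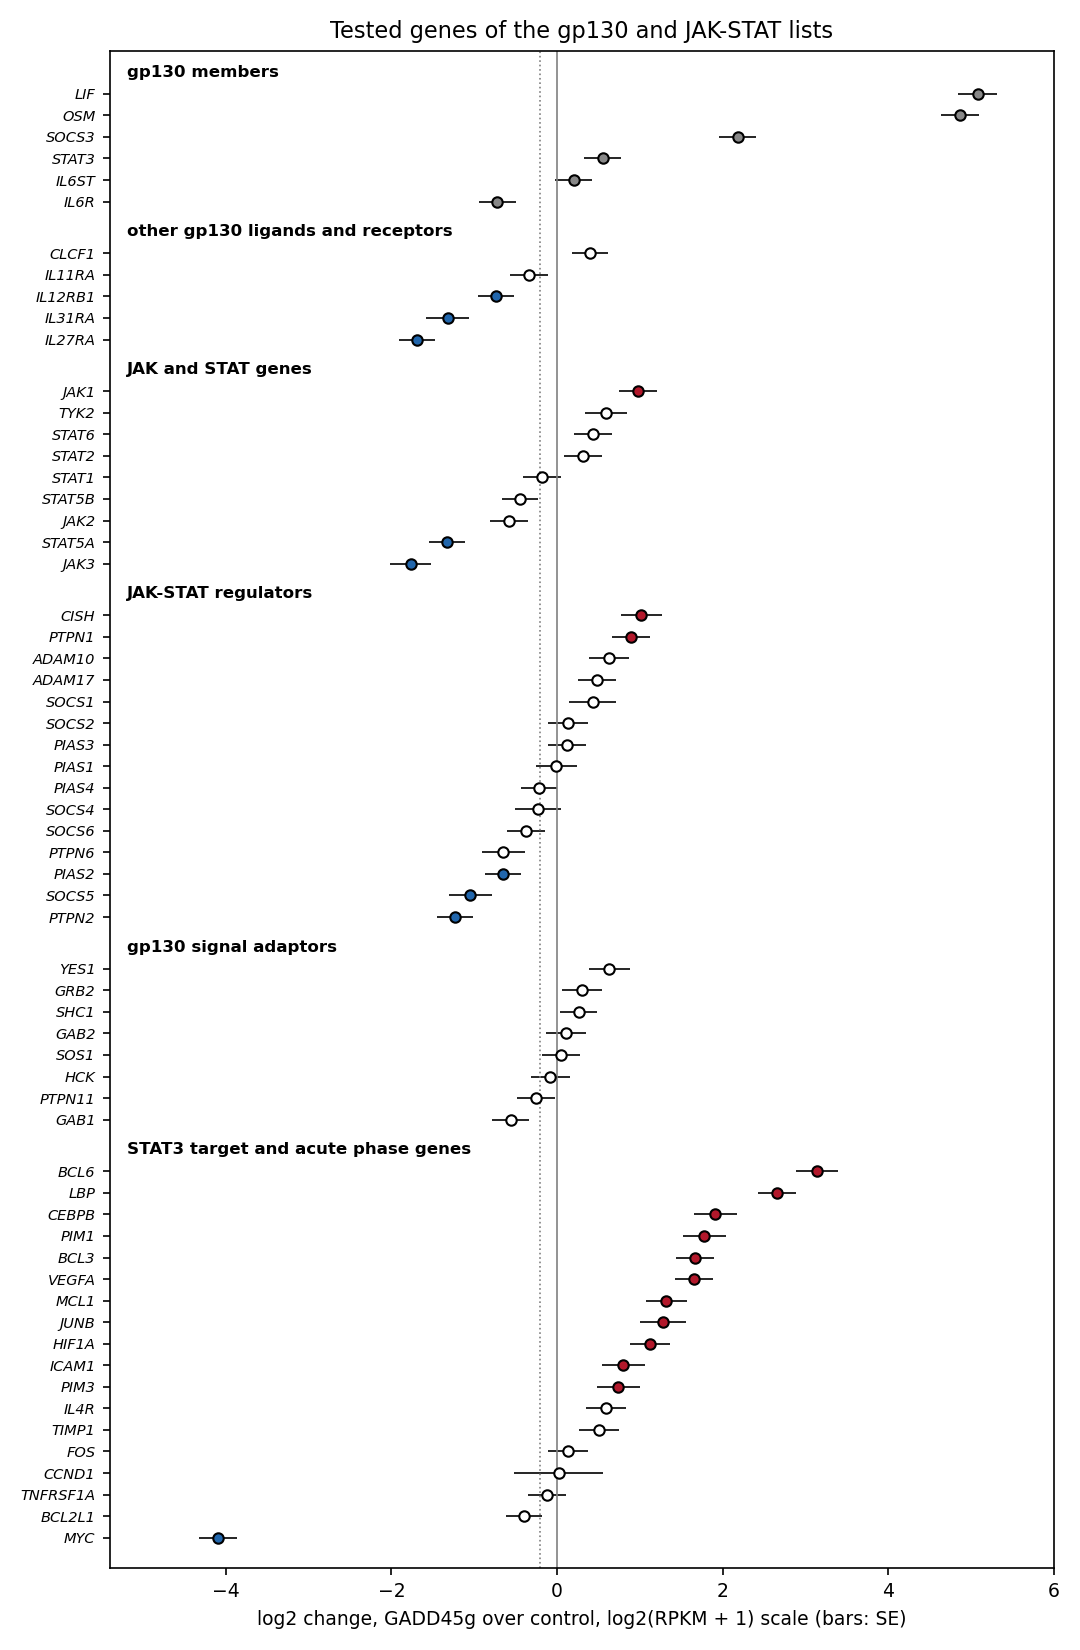
Log2 change, GADD45g over control, on the log2(RPKM + 1) scale with its SE, for the tested genes of the gp130 and JAK-STAT lists that are reported here. Red and blue points passed an adjusted p of 0.05 as higher and lower, white points did not, and grey points are the members, for which no test is given; the dotted line is the median change of all tested genes, -0.21.

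Genes known as STAT3 targets or acute phase genes made up the list with the most increases. Of 29 such genes 18 were tested, of which 11 rose, 1 fell and 6 did not pass. These 12 calls became 10 with no filter on low values or with IDs missing from a file kept. They became 14 after upper quartile scaling and with the median change shifted to 0, and 13 after quantile normalization. The median log2 change was 0.96 (-0.21 over all tested genes, of which 12.2% rose). The list was chosen with earlier results of these data known, so these counts are a description. BCL6, a transcriptional repressor, rose to 68.7 and 71.4 RPKM in the GADD45g libraries, against 5.59 and 8.86 RPKM in the controls (3.14 ± 0.25, adjusted p = 1.22e-05). LBP, the lipopolysaccharide-binding protein of the acute phase response, rose to 7.02 and 9.48 RPKM, against 0.543 and 0.358 RPKM (2.66 ± 0.23, adjusted p = 1.76e-05), and passed the filter on low values through the GADD45g libraries alone. CEBPB, a transcription factor of the acute phase and of macrophages, rose to 204 and 175 RPKM, against 42.8 and 57.3 RPKM (1.91 ± 0.26, adjusted p = 0.000258).

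BCL3, a nuclear partner of NF-kB subunits, rose to 11.2 and 8.90 RPKM, against 2.05 and 2.91 RPKM in the controls (1.67 ± 0.23, adjusted p = 0.000298). Other increases that passed were those of PIM1, VEGFA, MCL1, JUNB, HIF1A, ICAM1 and PIM3, between 0.74 and 1.78 on the log2 scale. PIM3 passed by little (limma adjusted p = 0.0453), with changes of 1.16 and 0.33 in the replicate 1 and replicate 2 pairs. MYC, which STAT3 activates in other cell types, was the gene that fell, to 1.59 and 1.07 RPKM, against 35.1 and 42.9 RPKM (-4.10 ± 0.23, adjusted p = 1.05e-06). Many of these genes are also controlled by NF-kB, AP-1 or hypoxia, and the list is not specific to STAT3.

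The liver acute phase genes SERPINA3, FGB, FGG and SAA1 were at 0 RPKM in all 4 libraries, and CRP, FGA and SAA2 stayed under 0.1 RPKM. A2M, another acute phase gene, was at 1.18 and 2.06 RPKM in the GADD45g libraries and 0.0918 and 0.0599 RPKM in the controls, under the filter. CCND1 followed the replicate number and not the group, at 2.34 and 0.0259 RPKM in GADD45g replicates 1 and 2 and 2.07 and 0.0792 RPKM in control replicates 1 and 2, as the epithelial markers did.

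Promoter windows (250 bases before the transcript start) were searched for the palindromic STAT motif TTCNNNGAA on both strands, in RefSeq sequence of build GRCh38.p14. The table of promoter sequences covered 8 members, and OSM and LIF were not among them. Of the 8, LIFR alone held the motif, in 2 of its 3 windows, and the windows of SOCS3, STAT3, IL6, IL11, IL6R, IL6ST and OSMR did not hold these letters. Over all 27305 genes with a window, 8.09% held it in any window, and 6.57% of all windows did. In the other pathway lists CISH, BCL6 (in 1 of 2 windows) and ICAM1, which rose, and FGA, which was not tested, had it. That is 3 of 19 STAT3 target and acute phase genes with a window (15.8%) and 1 of 13 regulators (7.69%). It was in 0 of 7 other ligands and receptors, 0 of 9 JAK and STAT genes and 0 of 5 adaptors. CISH and BCL6 windows are shown, chosen after their values were seen, 5′ to 3′, with the motif in capitals.
CISH, chr3:50611775-50612024, minus strand: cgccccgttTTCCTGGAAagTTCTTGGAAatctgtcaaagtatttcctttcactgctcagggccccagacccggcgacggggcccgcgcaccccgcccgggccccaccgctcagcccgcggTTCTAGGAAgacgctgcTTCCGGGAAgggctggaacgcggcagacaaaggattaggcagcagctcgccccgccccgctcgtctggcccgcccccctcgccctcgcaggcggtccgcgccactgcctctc
BCL6, chr3:187745469-187745718, minus strand: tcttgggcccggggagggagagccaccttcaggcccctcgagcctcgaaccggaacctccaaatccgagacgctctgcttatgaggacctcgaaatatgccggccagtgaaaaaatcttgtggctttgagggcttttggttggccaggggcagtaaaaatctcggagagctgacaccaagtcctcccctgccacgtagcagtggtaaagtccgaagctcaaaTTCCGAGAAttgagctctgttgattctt
The CISH window held 4 copies, beginning 241, 230, 129 and 112 bases before the start, and the BCL6 window 1 copy, beginning 28 bases before it. A match is a run of letters and not a measured binding site.

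LIF and OSM are neighbours on chromosome 22 in the RefSeq order of GRCh38.p14, and the genes around them were looked up because of their position. Among the protein-coding neighbours, TBC1D10A, a RAB GTPase-activating protein, was at 2.49 and 2.14 RPKM in the GADD45g libraries and 0.589 and 0.534 RPKM in the controls, a log2 change of 1.08 that passed the test, although it entered the fit through the GADD45g libraries alone. ASCC2 and MTMR3 on the LIF side changed by 0.58 and 0.49 and did not pass, SF3A1 on the OSM side changed by 0.07, HORMAD2 had 0 RPKM throughout, and CASTOR1 was not listed in all files. The changes of LIF and OSM, 5.08 and 4.87, stood above those of the measured neighbours.

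STAT3 lies beside STAT5A and STAT5B on chromosome 17. The log2 change was 0.55 for STAT3, -1.33 for STAT5A and -0.45 for STAT5B. IL6ST lies beside IL31RA on chromosome 5, and their log2 changes were 0.20 and -1.32; the next genes on the IL6ST side, ANKRD55 and MAP3K1, fell (-1.40 and -1.06), and ANKRD55 entered the fit through the controls alone.

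**Figure D4:**
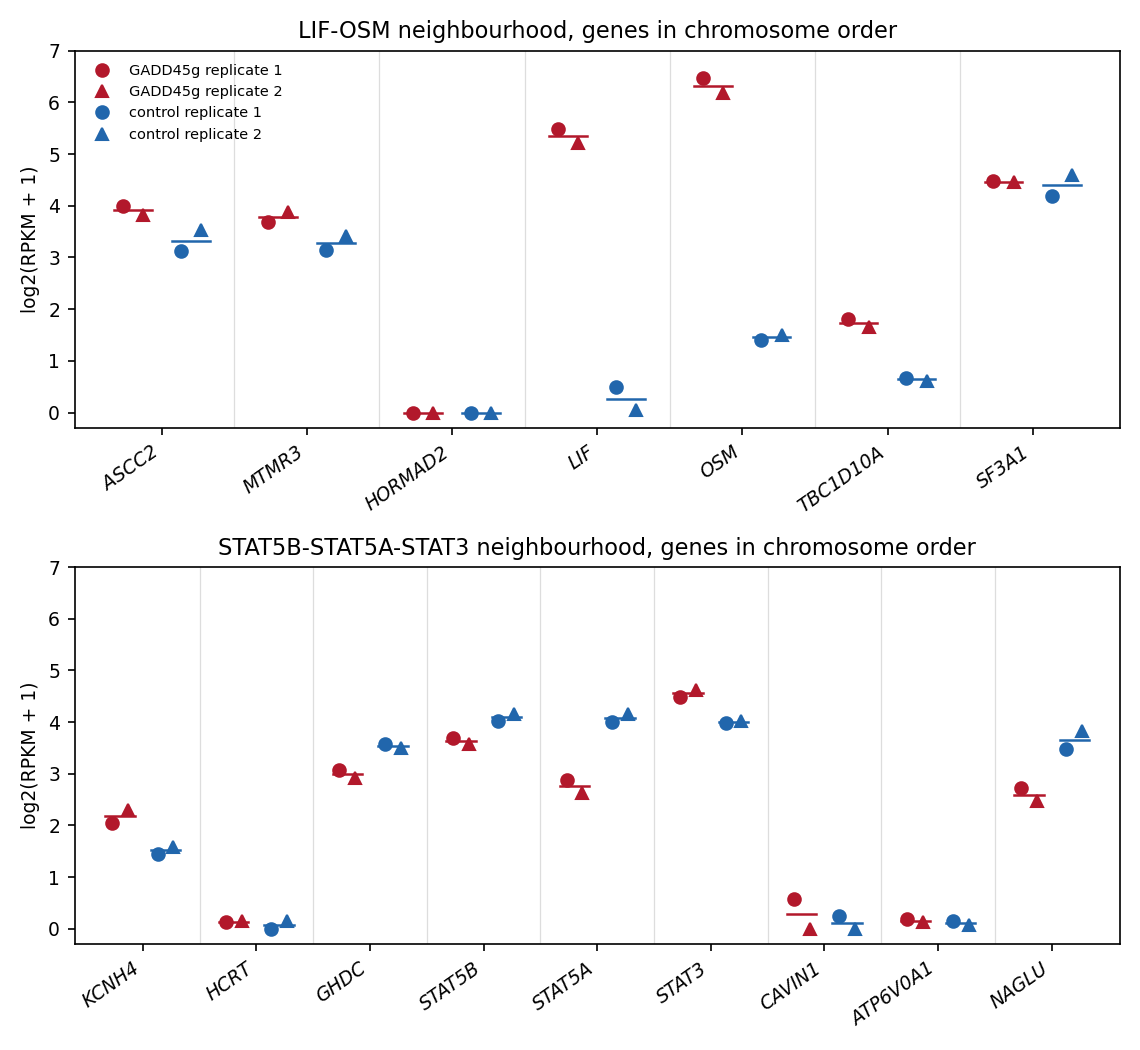
Level, as log2(RPKM + 1), of the protein-coding genes around LIF and OSM (top) and around STAT5B, STAT5A and STAT3 (bottom) in chromosome order, in GADD45g (red) and control (blue) libraries; circles are replicate 1, triangles replicate 2, and bars group means. LIF and OSM stand far above their neighbours' change, and STAT5A is lower in both GADD45g libraries while STAT3 is higher.

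The genes whose profile over the 4 libraries was most like that of a member were found by the root mean square difference of log2(RPKM + 1), each gene centred on its mean. Nearest to OSM were MMP14, a membrane-bound matrix metalloproteinase (0.09), KIR2DL4, a killer cell immunoglobulin-like receptor (0.09), and the chemokine CXCL5 (0.11). MMP14 had 56.7 and 48.9 RPKM in the GADD45g libraries, against 0.990 and 0.828 RPKM in the controls. Nearest to LIF were CDKN1A, which encodes the CDK inhibitor p21 (0.13), MMP14 (0.18) and KIR2DL4 (0.20). Nearest to SOCS3 were the pseudokinase gene TRIB2 (0.06), INHBA-AS1 (0.07) and the ubiquitin ligase gene FBXO32 (0.08), and nearest to IL6R were ENTREP3 (0.01), WDR82 (0.01) and the calcium-binding sorcin gene SRI (0.02). KIR2DL4 belongs to a family of near-identical genes and INHBA-AS1 is an antisense gene, so the reads of both are uncertain. With 4 libraries in 2 groups such likeness is set mainly by the size of the group difference.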

How the data were processed

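Total RNA was sequenced from 2 GADD45g and 2 control libraries, grouped by title. The titles differ by a suffix, and libraries without it are called replicate 1 and those with it replicate 2. Per the file headers the authors deposited RPKM, 1 value per Ensembl gene ID; TopHat, Cuffnorm, Cuffdiff and hg19 appear in the submitters' processing notes, without versions or roles. The values read for GADD45g replicate 1 stopped within a row after 27332 of 57820 IDs. These IDs hold 85.5% to 86.8% of the RPKM total of the other libraries, and the main fit used only them.

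Whole reads were recovered from the RPKM steps for 98.5% of 10818 IDs. Exon lengths came from GENCODE release 29 for 1120 IDs and were solved from the values, by requiring whole reads, for 9535. Of the solved lengths that gave whole reads, the one nearest the GENCODE length was taken. Where a gene has few reads several lengths can fit, and the reads given then depend on that choice. Of the low values checked, from IDs with an identical gene model, 100% were whole within 0.01 reads. The depth was itself chosen to make such values whole, so this is not an independent check. Poisson intervals of 95% and the floor of 3 reads cover counting error only, as do within-pair ratio intervals (exact conditional binomial). Overlapping genes may share reads, since the labels do not say whether counting used strand. Symbols came from a table of gene names (51996 IDs matched) and values sharing a symbol were added up. The 10771 genes averaging 1 RPKM or more were fitted as log2(RPKM + 1) with limma 3.58.1 in R 4.3.3 (lmFit, eBayes with trend, two-sided, Benjamini-Hochberg over all genes, threshold 0.05). The log2(RPKM + 1) scale understates the change of low genes. The fit was also run on values simulated from its own estimated spread, which cannot show whether its assumptions hold in these data. Coordinates come from RefSeq on GRCh38.p14, not the build of the files, and are given only for promoter sequences.

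The members and lists were chosen with earlier results of these data known. Named genes are the members, GADD45G, JAK1, JAK2, TYK2, up to 5 genes past the threshold with the smallest adjusted p in each list, and the 3 genes nearest in profile to OSM, LIF, SOCS3 and IL6R, leaving out small RNAs, unnamed loci and pseudogenes; neighbours by position and other genes were named after their values were seen. The values of some listed genes are not reported here. Alternatives were pseudocounts of 0.1 and 5, other filters (none, and 5 RPKM), 3 scalings, other spread models, a replicate block, each library left out, the highest row per symbol, IDs missing from a file kept, voom on the recovered reads and, added after seeing the data, each replicate pair alone.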

Additional observations from a re-analysis of the deposited data

How the results depend on the processing

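The 6 members fitted kept the sign of their change under all alternatives run, although the change of IL6ST was near 0 in some. The log2 change ranged from 3.64 to 5.51 for OSM, 3.10 to 8.18 for LIF, 1.00 to 3.39 for SOCS3, 0.46 to 0.77 for STAT3, 0.02 to 0.47 for IL6ST and -0.79 to -0.51 for IL6R. For OSM, LIF and SOCS3 the lowest came from a pseudocount of 5 and the highest from voom on the recovered reads. Of 318 values for 19 other named genes, GADD45G included, 285 kept their direction and call, 24 lost the call, 9 gained one and 0 reversed.

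With no filter on low values (genes at 0 in all libraries left out) 2462 genes were called, 823 higher and 1639 lower, against 4185, 1314 and 2871; 1 of the other gp130 ligands and receptors and 2 of the regulators were then called, and IL31RA, CISH and SOCS5 lost their calls (limma adjusted p = 0.0606, 0.0925 and 0.0937). With each library left out the calls ranged from 2597 to 3582 (798 to 1133 higher and 1766 to 2449 lower), those of the JAK and STAT genes from 2 to 5, of the regulators from 2 to 4 and of the adaptors from 0 to 1. The adaptor calls, 0 with limma as described, were 1 after each of the 3 scalings, and 2 with a robust prior or with voom. A replicate block that pairs libraries by title suffix called 5 JAK and STAT genes and 2 adaptors. The labels do not say that the suffix marks a shared day or batch; over tested genes, replicate 1 minus 2 in GADD45g correlated with that in control at 0.349. The cause of these differences was not tested. With 2 libraries per group, p-values rest on 2 residual degrees of freedom and a spread shared across genes.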
